A study of Mus musculus with 10 samples.

Results

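The collagen genes on the array were taken as the probes whose gene name has the form Col, a type number, a and a chain number, with the brightest probe standing for each gene. They were 43 of the 34780 gene names on the array. The rule used names and brightness and no difference between groups, but the members were chosen with earlier results of these data known. Of these 43, 36 passed the scanner's well-above-background flag in both cultures of some group and were tested, among 22623 genes tested in all. The other 7 (Col4a3, Col6a6, Col9a3, Col13a1, Col17a1, Col19a1 and Col28a1) were not well above background on any array and have no level here. By class the tested members were 11 of 11 fibrillar genes, 5 of 6 basement membrane genes, 3 of 3 short-chain network genes, 7 of 9 genes of the FACIT class (fibril-associated collagens with interrupted triple helices), 5 of 7 beaded filament genes with Col28a1 counted among them, the 1 anchoring fibril gene, 2 of 4 transmembrane genes and 2 of 2 multiplexins. A cartilage list that crosses these classes (Col2a1, Col9a1, Col9a2, Col9a3, Col10a1, Col11a1 and Col11a2) had 6 of 7 members tested.

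A collagen molecule is a triple helix of chains that may be alike or different, so the genes of a type are best read together. Fibrillar collagens such as types I, III and V assemble into the banded fibers of bone, tendon and skin, and type II with type XI forms the fibrils of cartilage. FACITs sit on the surface of such fibrils, type IV builds the sheet-like network of basement membranes, and types VIII and X form short-chain lattices. Mesenchymal stem cells are adherent stromal cells that can be driven towards bone, cartilage and fat, and collagen secretion is among their main products in culture.

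The arrays compared 5 groups of cultured mouse cells, each with 2 arrays of independent cultures per the labels, all on the FVB background and at passages 2 to 5. The tumor line was made ex vivo from a subcutaneous tumor that Rb- and p53-null bone marrow cells, differentiated towards bone for 10 days, formed in immunodeficient NSG mice. It is 1 line, and the labels call its samples a tumor in one field and a cell line in another. The null BM-MSC (bone marrow mesenchymal stem cells) and the null ASC (the same kind of cells from fat) are labelled as lacking both Rb and p53. Per the protocol they carried floxed alleles of both genes, spent 10 days in osteogenic medium and were then infected with an adenovirus that expresses Cre recombinase from the CMV promoter, although another label names null mice as the source. The wild-type cells of marrow and of fat were kept in growth medium, with neither the osteogenic step nor the virus. The labels call the null BM-MSC and the tumor line tumorigenic and the other groups non-tumorigenic, and the study asked whether the kind of sarcoma depends on how far the cell of origin had differentiated when both genes were lost. Loss of the genes, the osteogenic step, the virus and the row of the slide all go together in the null against wild-type comparisons, so these cannot be told apart. The tumor line's arrays carry a scan date of their own in the file headers, taken here as a separate slide. That difference cannot be told apart from the line itself.

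Levels are log2 of the background-subtracted signal over the 75th percentile of the same array, so 0 is the level of that percentile. Between 53.3% and 58.4% of the spots on each array were well above background, and the 75th percentile lay between 483 and 621 signal units. Changes are limma estimates on that log2 scale with their standard error, and a change was called at a Benjamini-Hochberg adjusted p under 0.05 over all 22623 genes. Arrays of a group differed little at the collagen probes, with a median standard deviation between 0.0559 and 0.105 across the groups. Levels of Rb1 were -1.98 and -1.97 in the tumor line, 0.65 and 0.54 in null BM-MSC and -1.91 and -1.97 in null ASC, against means of 1.91 in the wild-type marrow group and 1.31 in the wild-type fat group. Trp53 stood at -1.003 in null BM-MSC, against 0.77 in wild-type BM-MSC. For null ASC its mean was -4.81, with 1 array not well above background, against 1.06 in wild-type ASC, and the tumor line was not above background. Both genes were thus still well above background in null BM-MSC, where Rb1 was 2.49-fold and Trp53 3.41-fold lower than in wild-type BM-MSC, while in null ASC Rb1 was 9.49-fold and Trp53 58.5-fold lower than in wild-type ASC. Where these probes lie relative to the floxed parts was not determined. All 7 stromal markers examined were above background in every group, with Eng at -2.12 in the tumor line, against 2.98 to 4.30 in the other groups. This list was split, with Nt5e, Cd44, Ly6a and Pdgfra averaging higher in the line than in null BM-MSC and Thy1, Eng and Pdgfrb lower. In units of the 75th percentile it summed to 105.6 to 110.2 in the line, against 78.9 to 80.8 in null and 114 to 126.3 in wild-type BM-MSC. Of 7 hematopoietic and macrophage markers, Itgam, Cd68, Emr1, Csf1r and Cd14 were above background in every group. Ptprc was not above it in null ASC, nor Lyz2 in null BM-MSC. The list summed to between 13.4 and 32.8 units of the 75th percentile over the arrays. Among 5 endothelial markers Kdr and Pecam1 were above background in every group, Emcn in the ASC groups and Cdh5 and Tek in none. Among 4 epithelial markers Krt5 and Krt14 were above it in every group, Cdh1 in null BM-MSC and Epcam in none. In mixed RNA of this kind, fewer cells of a type and less RNA per cell cannot be told apart.

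Upstream sequence is shown for 3 genes with contrasting behaviour and for the Col4a1 and Col4a2 pair, whose annotated first bases overlap on opposite strands. The sequences are from RefSeq on GRCm38.p6, 5′ to 3′ on the plus strand, which is the coding strand of Col8a2, Col3a1, Col1a2 and Col4a2. Capitals mark the motif CCAAT, the GC box GGGCGG and the TATA-type motif TATAAA, searched on both strands, and where capitals run together matches overlap. Col8a2, with the largest difference between marrow and fat that has a value on both sides, is given by chr4:126286544-126286793. Col3a1, called in all 7 contrasts, is given by chr1:45311288-45311537, and Col1a2, called in none, by chr6:4505368-4505617. The overlap, from the Col4a2 start to the Col4a1 start, is chr8:11312805-11312826.
Col8a2: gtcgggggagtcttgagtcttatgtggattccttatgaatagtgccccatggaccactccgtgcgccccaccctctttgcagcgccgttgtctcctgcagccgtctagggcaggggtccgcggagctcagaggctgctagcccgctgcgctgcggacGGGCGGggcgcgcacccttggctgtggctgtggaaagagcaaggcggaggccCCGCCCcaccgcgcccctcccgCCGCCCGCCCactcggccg
Col3a1: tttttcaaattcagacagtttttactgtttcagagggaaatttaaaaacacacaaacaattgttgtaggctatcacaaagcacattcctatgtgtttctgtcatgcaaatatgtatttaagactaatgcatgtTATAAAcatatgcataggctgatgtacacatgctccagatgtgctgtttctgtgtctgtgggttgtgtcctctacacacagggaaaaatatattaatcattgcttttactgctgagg
Col1a2: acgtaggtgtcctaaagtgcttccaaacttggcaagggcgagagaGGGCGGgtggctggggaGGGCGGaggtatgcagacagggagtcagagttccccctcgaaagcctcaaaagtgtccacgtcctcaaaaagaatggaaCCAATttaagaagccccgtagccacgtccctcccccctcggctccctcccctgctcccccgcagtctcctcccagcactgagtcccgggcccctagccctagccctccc
Col4a1-Col4a2: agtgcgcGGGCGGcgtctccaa
The Col8a2 window held 4 GGGCGG matches, the Col3a1 window 1 TATAAA and no GGGCGG, and the Col1a2 window 2 GGGCGG and 1 CCAAT. Windows of 250 bases were found for 35 of the 43 genes, 38 windows in all because some genes have several starts. GGGCGG was present in 57.9% of them against 32.7% of all 32851 windows in the table, CCAAT in 34.2% against 33.8%, and TATAAA in 13.2% against 12.4%. A match describes the letters of the window and is not a shown binding site.

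**Figure D1:**
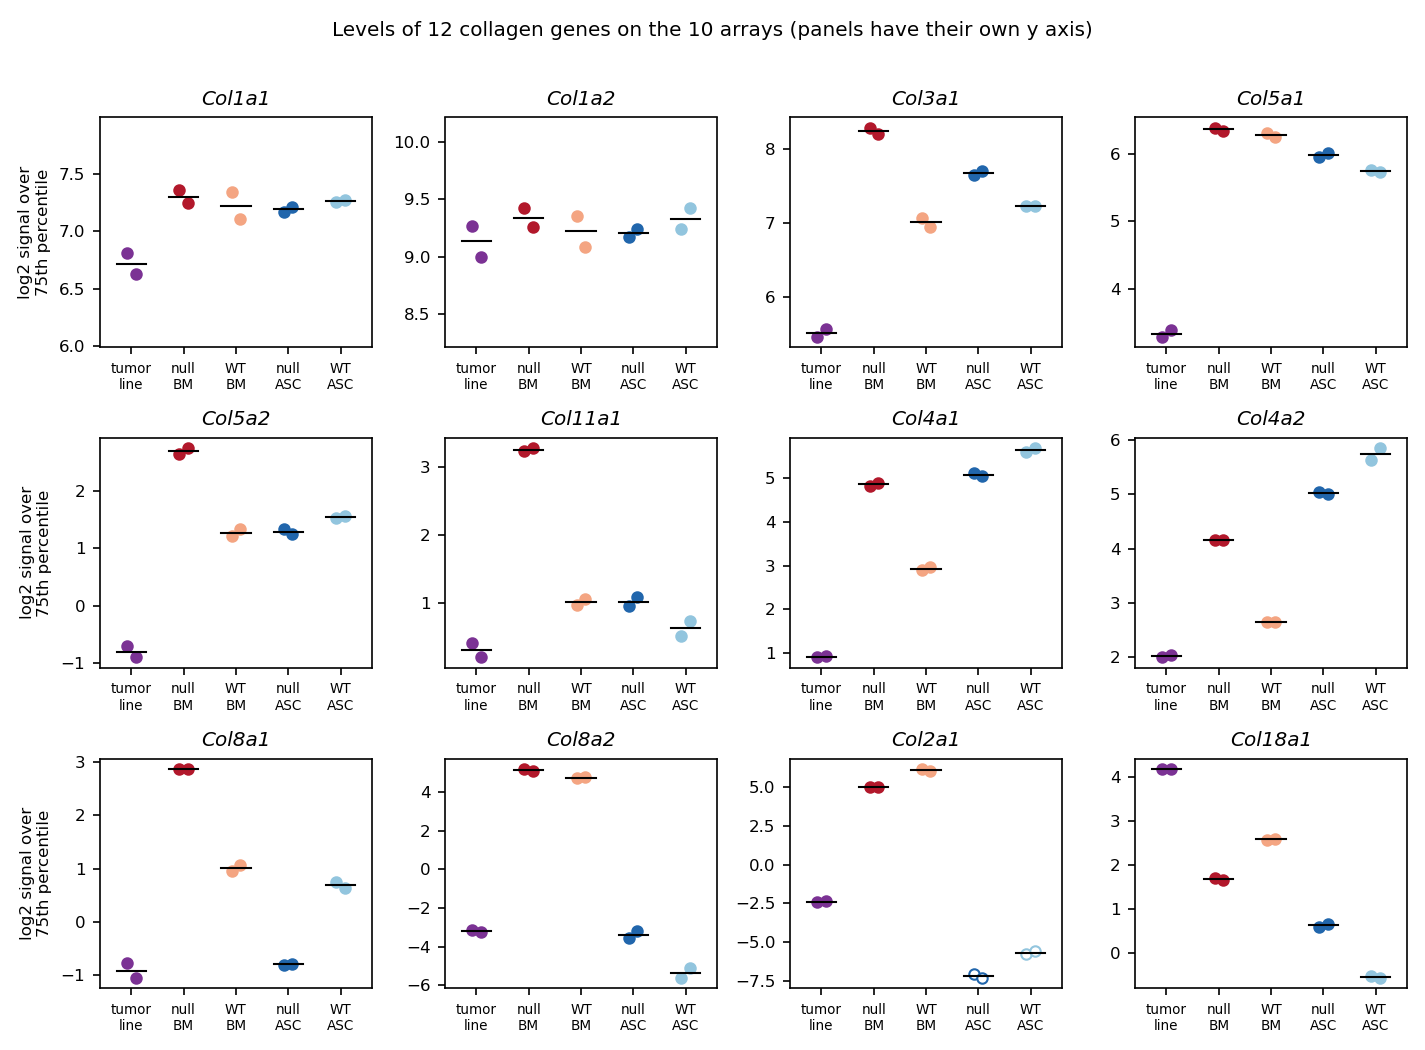
Levels of 12 collagen genes by group, as log2 signal over the array's 75th percentile on each panel's own y axis. Each point is 1 array, the line is the group mean, and open points are not well above background on either array. Col1a2 lay between 9.0 and 9.42 on all 10 arrays, while Col8a2 stood between 4.74 and 5.21 in the marrow cultures and below -3 elsewhere. Whether the bright Col1a2 signal was compressed near the top of the scale was not tested.

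Null BM-MSC and wild-type BM-MSC were compared first. Col11a1, Col24a1, Col4a1, Col4a2, Col8a1, Col5a2, Col3a1 and Col6a3 were all more than 1 log2 unit higher in null BM-MSC, and Col4a4, Col10a1 and Col2a1 were more than 1 log2 unit lower. In all, 19 of the 36 tested collagen genes were called, where 39.5% of all genes tested were, with 12 higher and 7 lower, where the shares over all genes were 19.3% and 20.2%. The median change of the 36 was 0.11, against 0.01 over all genes tested. Both chains of type I collagen, the main protein of bone matrix, stayed without a call in this comparison.

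Among the fibrillar genes, 5 of 11 were higher, 1 was lower and 5 did not pass. Col1a1 (probe at chr11:94813115-94813174, mm9) had levels of 7.36 and 7.24 in null BM-MSC, against 7.34 and 7.11 in wild-type BM-MSC, a difference of 0.08 ± 0.10 (adjusted p = 0.6). Col1a2 (chr6:4490619-4490678) had 9.42 and 9.26 in null BM-MSC, against 9.36 and 9.08 in wild-type BM-MSC, a difference of 0.12 ± 0.14 (adjusted p = 0.542). The arrays of the groups overlapped for both chains. Col1a2 had the highest levels of the collagen genes, and no array flagged it as saturated. Its level was highest, at 9.42, on the arrays with a 75th percentile of 483 and 487 signal units. It was lowest, at 9.0, on the array where that percentile was 621. Whether the Col1a2 signal was compressed near the top of the scale was not tested, so its differences may be understated. Col3a1 (chr1:45405589-45405648), the type III collagen of stretchable tissues, had 8.28 and 8.19 in null BM-MSC, against 7.07 and 6.95 in wild-type BM-MSC, a rise of 1.23 ± 0.06 (adjusted p = 3.72e-05). Col5a2 (chr1:45431204-45431263), a chain of the type V collagen that starts fibrils and limits their width, had 2.64 and 2.74 in null BM-MSC, against 1.21 and 1.33 in wild-type BM-MSC, a rise of 1.42 ± 0.08 (adjusted p = 5.91e-05). The partner chain Col5a1 (chr2:27892892-27892951) had 6.38 and 6.34 in null BM-MSC, against 6.31 and 6.24 in wild-type BM-MSC, a difference of 0.08 ± 0.05 (adjusted p = 0.286). Of the type V chains Col5a2 was thus the one called here, and Col5a3, with 1.47 and 1.68 in null BM-MSC against 1.20 and 1.5 in wild-type BM-MSC, did not pass either (adjusted p = 0.254). Col11a1 (chr3:113923185-113923244), a type XI chain that can also join type V chains, had 3.23 and 3.27 in null BM-MSC, against 0.97 and 1.05 in wild-type BM-MSC, a rise of 2.25 ± 0.10 (adjusted p = 2.42e-05). Col11a2 had -2.10 and -1.94 in null BM-MSC, against -2.14 and -1.90 in wild-type BM-MSC, and its groups overlapped (adjusted p = 0.996). Col24a1, a fibrillar collagen of developing bone, had 1.80 and 1.84 in null BM-MSC, against -0.59 and -0.28 in wild-type BM-MSC, a rise of 2.25 ± 0.26 (adjusted p = 0.000844). Col27a1, a fibrillar collagen of cartilage, rose by 0.52 ± 0.11 (adjusted p = 0.0121). Col2a1 (chr15:97806071-97806130), the main fibril protein of cartilage, had 5.02 and 4.98 in null BM-MSC, against 6.16 and 6.01 in wild-type BM-MSC, a change of -1.09 ± 0.10 (adjusted p = 0.00035), with no overlap.

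In the basement membrane class, 2 of the 5 tested genes were higher and 2 lower. Col4a1 and Col4a2 encode the chains of the common type IV network. Col4a1 (chr8:11199009-11199068) had 4.84 and 4.91 in null BM-MSC, against 2.89 and 2.98 in wild-type BM-MSC, a rise of 1.93 ± 0.06 (adjusted p = 6.87e-06). Col4a2 (chr8:11448840-11448899) had 4.15 and 4.16 in null BM-MSC, against 2.65 and 2.65 in wild-type BM-MSC, a rise of 1.5 ± 0.07 (adjusted p = 3e-05). These are the genes whose overlapping first bases are printed above, and both rose. Col4a4, known from the filtering membrane of the kidney, had -3.63 and -3.77 in null BM-MSC, against -2.11 and -2.54 in wild-type BM-MSC, a change of -1.37 ± 0.31 (adjusted p = 0.014). Col4a5 had 0.77 and 0.68 in null BM-MSC, against 1.21 and 1.07 in wild-type BM-MSC, a change of -0.41 ± 0.06 (adjusted p = 0.00238). Its neighbour Col4a6 had -2.71 and -2.68 in null BM-MSC, against -2.64 and -2.88 in wild-type BM-MSC, and did not pass (adjusted p = 0.794).

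Among short-chain collagens, Col8a1 (chr16:57624471-57624530) had 2.87 and 2.87 in null BM-MSC, against 0.96 and 1.07 in wild-type BM-MSC, a rise of 1.86 ± 0.10 (adjusted p = 3.72e-05). Col8a2 (chr4:125991441-125991500), the other type VIII chain, had 5.21 and 5.10 in null BM-MSC, against 4.74 and 4.79 in wild-type BM-MSC, and did not pass at 0.39 ± 0.18 (adjusted p = 0.135). Col10a1, made by hypertrophic chondrocytes, had -3.80 and -4.66 in null BM-MSC, against -2.69 and -3.23 in wild-type BM-MSC, a change of -1.27 ± 0.31 (adjusted p = 0.0192). In the beaded filament class, whose type VI chains form microfilaments around cells, 3 of 5 were higher and none lower. Col6a3 (chr1:92663663-92663722) had 7.48 and 7.43 in null BM-MSC, against 6.25 and 6.21 in wild-type BM-MSC, a rise of 1.22 ± 0.04 (adjusted p = 1.1e-05). Col6a2 had 6.59 and 6.57 in null BM-MSC, against 5.86 and 5.78 in wild-type BM-MSC, a rise of 0.76 ± 0.05 (adjusted p = 0.000129). Col6a1 had 8.31 and 8.34 in null BM-MSC, against 7.97 and 7.91 in wild-type BM-MSC, a rise of 0.38 ± 0.04 (adjusted p = 0.000751). All chains of the classical type VI trimer were thus higher, by different amounts.

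The FACIT class had 1 gene higher, 2 lower and 4 not past the threshold. Col20a1 had 0.28 and 0.22 in null BM-MSC, against 1.11 and 1.36 in wild-type BM-MSC, a change of -0.98 ± 0.10 (adjusted p = 0.000496). Col22a1, found at junctions of muscle and tendon, changed by -0.58 ± 0.10 (adjusted p = 0.00477). Col12a1 (chr9:79446895-79446954), which coats type I fibrils in tendon and bone surfaces, had 3.75 and 3.69 in null BM-MSC, against 3.46 and 3.44 in wild-type BM-MSC, a rise of 0.27 ± 0.05 (adjusted p = 0.00649). Col14a1, a FACIT of dense connective tissue, had -2.03 and -2.33 in null BM-MSC, against -2.48 and -2.62 in wild-type BM-MSC, and did not pass (adjusted p = 0.171). Col18a1 (chr10:76514926-76514985), the multiplexin whose end fragment is endostatin, had 1.71 and 1.66 in null BM-MSC, against 2.57 and 2.59 in wild-type BM-MSC, a change of -0.90 ± 0.04 (adjusted p = 3.3e-05). Of the cartilage list 1 gene (Col11a1) was higher, 2 (Col2a1 and Col10a1) were lower and 3 did not pass. Beside this, the summed level of 6 chondrocyte markers was 8.98 to 9.17 in null BM-MSC, against 4.88 to 5.37 in wild-type BM-MSC, and that of 6 osteoblast markers was 81.7 to 84.4 in null BM-MSC, against 26.3 to 27.7 in wild-type BM-MSC, in units of the 75th percentile. Within the chondrocyte list Comp averaged 2.62 in null BM-MSC, against 0.95 in wild-type BM-MSC, and Sox9 1.04 in null BM-MSC, against 1.62 in wild-type BM-MSC, while Matn1 was not above background in either group and Matn3 not in wild-type BM-MSC. Within the osteoblast list Ibsp averaged 5.69 in null BM-MSC, against 2.37 in wild-type BM-MSC, and Spp1 3.66 in null BM-MSC, against 4.21 in wild-type BM-MSC. Adipocyte markers summed to 7.17 to 7.36 in null BM-MSC, against 13.4 to 14.1 in wild-type BM-MSC, and hematopoietic and macrophage markers to 22.2 to 23.3 in null BM-MSC, against 28.5 to 28.8 in wild-type BM-MSC. Their part in the collagen changes was not tested. Of the 19 calls, 16 held when any 1 array was left out. Col4a4 (highest adjusted p = 0.082, lost without either null array or array 1 of the wild-type cells), Col10a1 (0.106, lost without null BM-MSC array 2, where the change was -0.84, or array 1 of the wild-type cells) and Col27a1 (0.0718, lost without either null array or array 1 of the wild-type cells) did not.

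**Figure D2:**
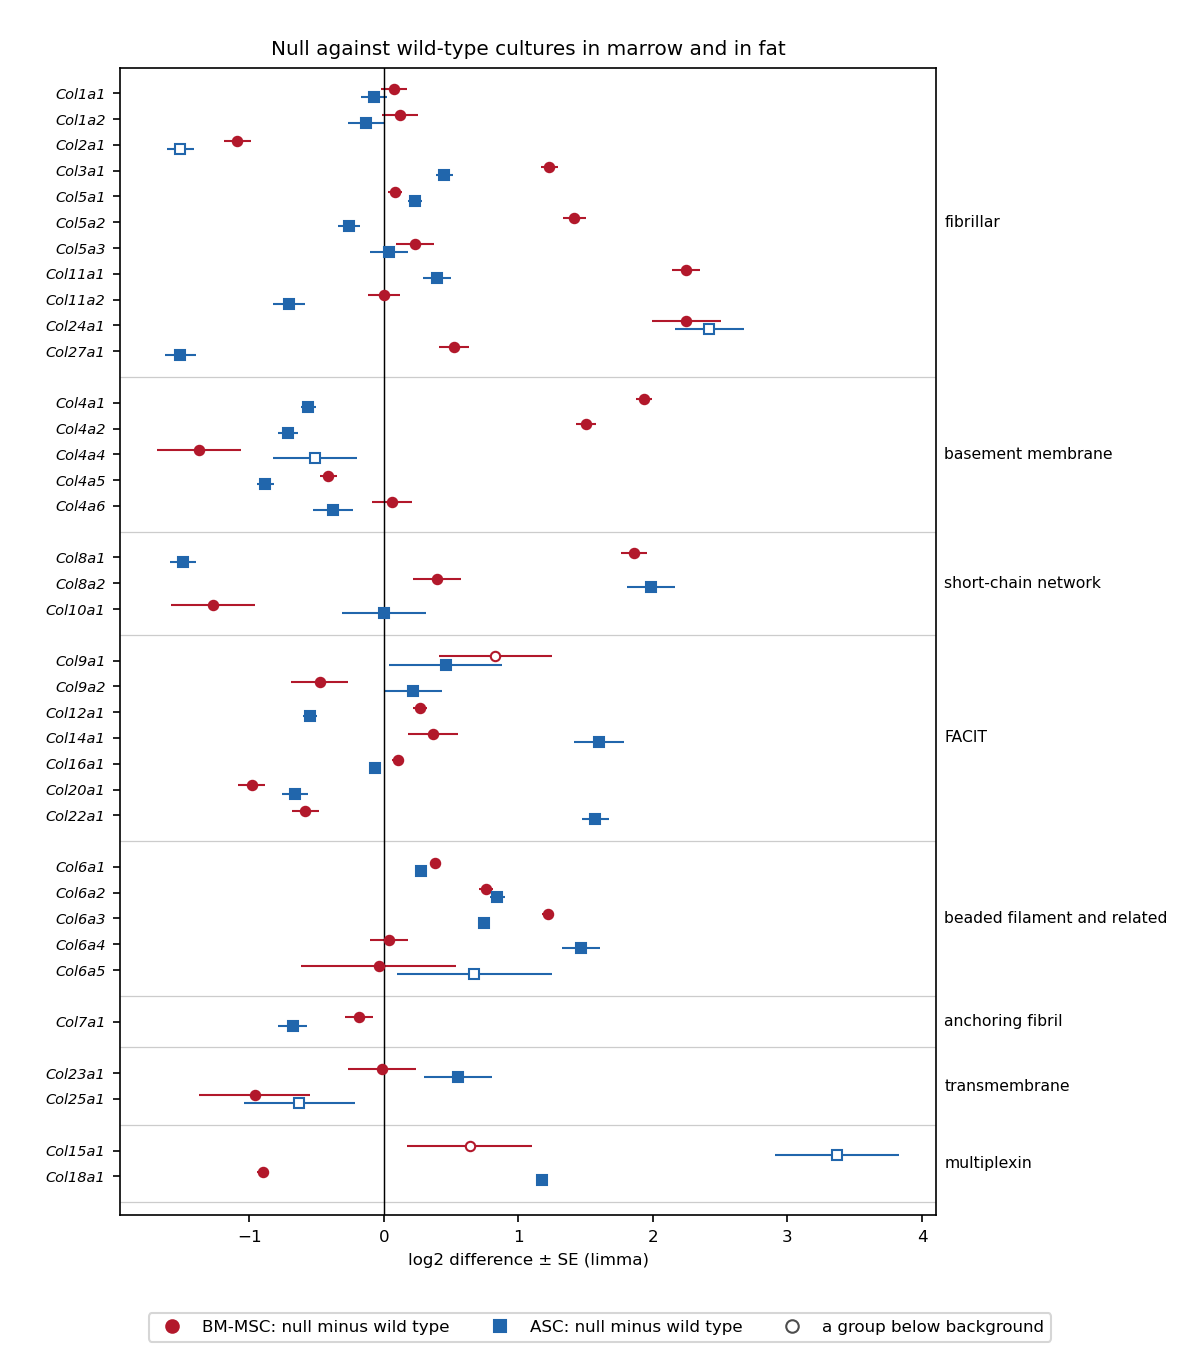
Null minus wild-type difference (log2, ± SE from limma) for the 36 tested collagen genes, grouped by class. Red circles are marrow cultures and blue squares fat cultures, with 2 arrays per group, and open symbols mark a group below background. Col4a1, Col4a2 and Col8a1 lie to the right of 0 in marrow and to its left in fat, and Col18a1 the other way round.

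Null ASC were then set against wild-type ASC, the same comparison in cells from fat. Col15a1, Col24a1, Col8a2, Col14a1, Col22a1, Col6a4 and Col18a1 were more than 1 log2 unit higher in null ASC, while Col27a1 and Col8a1 were more than 1 log2 unit lower. Of the 36 tested genes 24 were called, where 41.5% of all genes tested were, with 13 higher and 11 lower, where the shares over all genes were 20.3% and 21.2%. The median change was 0.02, against -0.03 over all genes. Col1a1, with 7.17 and 7.21 in null ASC against 7.25 and 7.27 in wild-type ASC, and Col1a2, with 9.17 and 9.24 in null ASC against 9.24 and 9.42 in wild-type ASC, again did not pass (adjusted p = 0.609 and adjusted p = 0.492).

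Fibrillar genes split evenly, with 4 higher, 4 lower and 3 not past. Col3a1 had 7.65 and 7.70 in null ASC, against 7.23 and 7.23 in wild-type ASC, a rise of 0.45 ± 0.06 (adjusted p = 0.00176). Col24a1 had -3.42 and -2.99 in null ASC and was not well above background in wild-type ASC, at least 4.38-fold higher (adjusted p = 0.000517). Bounds of this kind set the group that was not well above background at the lowest signal that counts as detected on its arrays, or its own signal if that was higher. Col5a1 rose slightly, with 5.94 and 6.0 in null ASC against 5.76 and 5.72 in wild-type ASC and a difference of 0.23 ± 0.05 (adjusted p = 0.015). Col5a2 was lower, with 1.33 and 1.25 in null ASC against 1.53 and 1.56 in wild-type ASC and a change of -0.26 ± 0.08 (adjusted p = 0.0488). The type V chains thus moved in opposite directions in fat cells, although both calls were lost in some fits without 1 array (highest adjusted p = 0.0802 for Col5a1 and 0.187 for Col5a2). Col5a3 had 2.24 and 2.16 in null ASC against 2.31 and 2.02 in wild-type ASC and overlapped (adjusted p = 0.848). Col11a1 had 0.95 and 1.08 in null ASC, against 0.51 and 0.73 in wild-type ASC, a rise of 0.40 ± 0.10 (adjusted p = 0.0218). Col11a2 had -2.14 and -2.38 in null ASC, against -1.51 and -1.59 in wild-type ASC, a change of -0.70 ± 0.12 (adjusted p = 0.00383). The type XI chains also went opposite ways. Col27a1 had -3.55 and -3.26 in null ASC, against -1.82 and -1.97 in wild-type ASC, a change of -1.51 ± 0.11 (adjusted p = 0.000121). Col2a1 passed the test (adjusted p = 7.55e-05) but was not well above background in either ASC group, so it has no fold.

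All 3 basement membrane genes called in fat cells were lower, and 2 did not pass. Col4a1 had 5.12 and 5.05 in null ASC, against 5.60 and 5.69 in wild-type ASC, a change of -0.56 ± 0.06 (adjusted p = 0.000464). Col4a2 had 5.05 and 5.01 in null ASC, against 5.63 and 5.85 in wild-type ASC, a change of -0.71 ± 0.07 (adjusted p = 0.000433). Col4a5 had 2.82 and 2.81 in null ASC, against 3.71 and 3.68 in wild-type ASC, a change of -0.88 ± 0.06 (adjusted p = 8.57e-05). The groups did not overlap for any of these chains. Col4a6, with -2.15 and -2.22 in null ASC against -1.82 and -1.79 in wild-type ASC, did not pass (adjusted p = 0.0924), nor did Col4a4, which was dim in both. Col8a1 had -0.81 and -0.78 in null ASC, against 0.75 and 0.63 in wild-type ASC, a change of -1.49 ± 0.10 (adjusted p = 6.7e-05). Col8a2 had -3.55 and -3.22 in null ASC, against -5.63 and -5.11 in wild-type ASC with 1 array not well above background, a rise of 1.99 ± 0.18 (adjusted p = 0.000253). Col10a1, with -3.67 and -4.08 in null ASC against -3.96 and -3.80 in wild-type ASC, overlapped (adjusted p = 0.997).

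In the beaded filament class 4 of 5 genes were higher and none lower. Col6a1 had 8.56 and 8.54 in null ASC, against 8.28 and 8.25 in wild-type ASC, a rise of 0.28 ± 0.04 (adjusted p = 0.00246). Col6a2 had 6.73 and 6.66 in null ASC, against 5.80 and 5.89 in wild-type ASC, a rise of 0.84 ± 0.05 (adjusted p = 6.72e-05). Col6a3 had 6.12 and 6.15 in null ASC, against 5.41 and 5.37 in wild-type ASC, a rise of 0.74 ± 0.04 (adjusted p = 4.76e-05). The classical type VI chains were therefore higher in null cells of both tissues. Col6a4, an alternative chain that can take the place of Col6a3 in the mouse, had -3.23 and -3.46 in null ASC, against -4.80 and -4.81 in wild-type ASC, a rise of 1.46 ± 0.14 (adjusted p = 0.000347).

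FACIT genes had 2 higher, 2 lower and 3 not past in fat cells. Col22a1 had 0.52 and 0.64 in null ASC, against -1.01 and -0.97 in wild-type ASC, a rise of 1.57 ± 0.10 (adjusted p = 6.54e-05). Col14a1 had -1.26 and -1.22 in null ASC, against -3.05 and -2.64 in wild-type ASC, a rise of 1.60 ± 0.18 (adjusted p = 0.00071). Col12a1 had 0.20 and 0.17 in null ASC, against 0.77 and 0.70 in wild-type ASC, a change of -0.55 ± 0.05 (adjusted p = 0.000276). Col20a1 was also lower, at -0.66 ± 0.10 (adjusted p = 0.00231). Multiplexins, which sit in basement membrane zones, were both higher. Col15a1 had -2.69 and -2.96 in null ASC and was not well above background in wild-type ASC, at least 6.61-fold higher (adjusted p = 0.00154). It passed the filter through null ASC alone, the group where it was high, and that selection favours such a call. Col18a1 had 0.58 and 0.65 in null ASC, against -0.54 and -0.58 in wild-type ASC, a rise of 1.18 ± 0.04 (adjusted p = 1.17e-05). Col7a1, the anchoring fibril collagen of skin, had 1.69 and 1.39 in null ASC, against 2.23 and 2.20 in wild-type ASC, a change of -0.68 ± 0.10 (adjusted p = 0.00251). Of the 24 calls, 21 held when any 1 array was left out. Col5a1 (highest adjusted p = 0.0802, lost without array 2 of null or of wild-type ASC), Col11a1 (0.106, lost without null ASC array 2 or wild-type ASC array 1) and Col5a2 (0.187, lost when any of 8 arrays was left out) did not.

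Whether the null effect differed between marrow and fat was tested as a difference of differences, with a median standard error of 0.134. Of the 36 tested collagen genes, 12 had a null effect that was higher in marrow than in fat and 6 one that was lower, where 15.3% and 16.5% of all genes tested were called, 31.8% together. Fibrillar genes accounted for 5 of the 12 and basement membrane genes for 3. Opposite calls stood behind Col8a1, which differed by 3.35 ± 0.14 (adjusted p = 3.49e-05), Col4a1 by 2.49 ± 0.08 (adjusted p = 2.12e-05), Col4a2 by 2.22 ± 0.10 (adjusted p = 5.06e-05), Col27a1 by 2.03 ± 0.16 (adjusted p = 0.000306), Col5a2 by 1.67 ± 0.12 (adjusted p = 0.000205) and Col12a1 by 0.82 ± 0.07 (adjusted p = 0.000431). Col18a1 and Col22a1 showed the opposite pattern, lower in null marrow cells and higher in null fat cells, with differences of -2.07 ± 0.06 (adjusted p = 1.82e-05) and -2.15 ± 0.14 (adjusted p = 0.000164). Col11a1 and Col3a1 rose in both tissues, by 1.85 and 0.78 more in marrow, and Col6a3 by 0.48 more. For Col6a1 and Col6a2 the difference did not pass (0.10 ± 0.06 and -0.09 ± 0.08). Beside these, the null effect on the targeted genes was also unequal, with a difference of 1.93 ± 0.07 for Rb1 (adjusted p = 2.89e-05) and 4.10 ± 0.28 for Trp53 (adjusted p = 0.000173, with 1 null ASC array not well above background), and its part in the collagen differences was not tested. Of the 18 calls, 14 held when any 1 array was left out, and Col7a1 (highest adjusted p = 0.132, lost when any of 9 arrays was left out), Col11a2 (0.0696, lost without array 2 of null BM-MSC or null ASC or array 1 of either wild-type group), Col14a1 (0.0507, lost without wild-type BM-MSC array 1) and Col15a1 (0.0691, lost without array 1 of either null group or without any wild-type marrow array) did not. Averaging the probes of a gene ended the calls of Col12a1 (0.40) and Col8a2 (-0.63). The second Col12a1 probe was not above background on any array, so that average mixes a detected and an undetected probe.

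Marrow and fat cultures were compared within each genotype. Among null cells 26 of the 36 collagen genes were called, where 55.4% of all genes tested were, with 15 higher in BM-MSC and 11 lower, where the shares over all genes were 26.0% and 29.4%. Among wild-type cells 29 were called, where 54.0% of all genes were, with 17 higher and 12 lower, where the shares over all genes were 25.7% and 28.4%. The median collagen change was 0.15 in null cells and 0.34 in wild-type cells, against -0.02 and -0.05 over all genes. Values on each array are those given above, and no array is shared between these 2 comparisons.

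By size of change, Col2a1 and Col8a2 differed most between the tissues in both genotypes. Col2a1, at 4.98 to 6.16 in marrow cultures, was not well above background in fat cultures, which put the marrow level at least 1218-fold higher among null cells (adjusted p = 1.65e-08) and at least 3193-fold higher among wild-type cells (adjusted p = 1.55e-08). Col8a2 was higher in marrow by 8.54 ± 0.18 (adjusted p = 2.25e-07) in null cells and by 10.13 ± 0.18 (adjusted p = 1.48e-07) in wild-type cells. Col12a1 was higher in marrow by 3.53 ± 0.05 (adjusted p = 6.79e-08) in null cells and by 2.72 ± 0.05 (adjusted p = 1.72e-07) in wild-type cells. Col24a1 was higher by 5.02 ± 0.26 (adjusted p = 9.13e-06) in null cells and at least 29.9-fold higher (adjusted p = 8.43e-06) in wild-type cells. These genes differed in the same direction in both genotypes, as did Col20a1, at 1.54 among null cells and 1.86 among wild-type cells, and Col27a1, at 3.34 in null cells and 1.31 in wild-type cells. Col8a1 was higher in null BM-MSC than in null ASC by 3.67 ± 0.10 (adjusted p = 5.28e-07), and in wild-type cells by 0.32 ± 0.10 (adjusted p = 0.0296). The multiplexin Col18a1 was higher in marrow by 1.07 ± 0.04 (adjusted p = 3.6e-06) in null cells and by 3.14 ± 0.04 (adjusted p = 8.12e-08) in wild-type cells.

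Most type IV chains were lower in marrow than in fat. In wild-type cells Col4a1 was lower in marrow at -2.71 ± 0.06 (adjusted p = 2.89e-07), Col4a2 at -3.09 ± 0.07 (adjusted p = 4.03e-07) and Col4a5 at -2.56 ± 0.06 (adjusted p = 4.08e-07). In null cells Col4a1 stood at -0.21 ± 0.06 (adjusted p = 0.0196), Col4a2 at -0.87 ± 0.07 (adjusted p = 8.47e-05) and Col4a5 at -2.09 ± 0.06 (adjusted p = 7.94e-07), the first of these lost under median scaling (-0.11). Of the 5 tested basement membrane genes, 4 were lower and 1 higher in marrow in each genotype, and the higher gene, Col4a4, was at least 2.94-fold higher (adjusted p = 0.00147) in null cells and at least 7.56-fold higher (adjusted p = 0.000298) in wild-type cells. Col16a1 (chr4:129776333-129776392), a FACIT found near small blood vessels and in cartilage, had 5.31 and 5.32 in null BM-MSC against 6.90 and 6.85 in null ASC, and 5.23 and 5.19 in wild-type BM-MSC against 6.96 and 6.91 in wild-type ASC. Its changes were -1.55 ± 0.04 (adjusted p = 6.97e-07) in null cells and -1.73 ± 0.04 (adjusted p = 5.04e-07) in wild-type cells. Col22a1 had -3.90 and -3.73 in null BM-MSC and -3.12 and -3.35 in wild-type BM-MSC, below the fat cultures, with changes of -4.40 ± 0.10 (adjusted p = 3.19e-07) in null cells and -2.24 ± 0.10 (adjusted p = 5.44e-06) in wild-type cells. Col15a1 had -5.29 and -4.52 in null BM-MSC, with 1 array not well above background, and a change of -2.08 ± 0.46 (adjusted p = 0.00843) against null ASC. It was tested only because it passed the filter in null ASC.

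Fibrillar genes were 7 higher and 1 lower in null marrow cells, and 5 higher and 4 lower in wild-type marrow cells. Col3a1 and Col5a2 were called in opposite directions, at 0.56 and 1.40 in null cells and -0.22 and -0.27 in wild-type cells. For both, that reversal is the difference of null effects given above, and the wild-type calls were lost under median scaling (-0.19 and -0.24). Type I chains passed in neither genotype (adjusted p = 0.386 and adjusted p = 0.431 in null cells, adjusted p = 0.785 and adjusted p = 0.533 in wild-type cells). Of the cartilage list, 2 genes were higher in null marrow cells and none lower, and in wild-type marrow cells 4 were higher and 1 lower. The chondrocyte markers summed to 8.98 to 9.17 in null BM-MSC against 1.00 to 1.09 in null ASC, and to 4.88 to 5.37 in wild-type BM-MSC against 0.20 to 0.23 in wild-type ASC. Of these, Matn1 was not above background in any of these groups, Matn3 in any but null BM-MSC, Hapln1 in either ASC group and Comp in wild-type ASC. The osteoblast markers summed to 81.7 to 84.4 in null BM-MSC against 0.49 to 0.70 in null ASC, and to 26.3 to 27.7 in wild-type BM-MSC against 0.45 in wild-type ASC, with Ibsp not above background in either ASC group and Sp7 not in null ASC. Adipocyte markers summed to 7.17 to 7.36 in null BM-MSC against 1.89 to 2.09 in null ASC, and to 13.4 to 14.1 in wild-type BM-MSC against 1.25 to 1.32 in wild-type ASC. In null cells Pparg averaged 2.48 in BM-MSC against -1.30 in ASC and Cebpa 0.51 against -2.92, while Fabp4 was the reverse, at -2.17 against 0.50. In wild-type cells Fabp4 averaged 1.96 in BM-MSC against -0.17 in ASC. Adipoq and Plin1 were not above background in either null group, nor Cebpa and Adipoq in wild-type ASC. In null cells Rb1 and Trp53 were also higher in BM-MSC than in ASC, by 2.53 ± 0.05 and 3.80 ± 0.20. The part of these lists and genes in the tissue results was not tested. Leaving out any 1 array kept 20 of the 26 calls in null cells and 20 of the 29 in wild-type cells. In null cells the calls lost, with highest adjusted p between 0.0502 and 0.204, were those of Col5a3 and Col15a1 (without null BM-MSC array 1), Col6a4 (without null ASC array 1), Col4a1 (without array 1 of either group), Col4a6 (without any of the 4 arrays) and Col6a5 (without any of 7 arrays, at 1.07 without null BM-MSC array 2). In wild-type cells, with highest adjusted p between 0.065 and 0.214, they were Col6a5 and Col9a2 (without wild-type BM-MSC array 1), Col11a2 (without array 1 of either group), Col3a1 (without wild-type BM-MSC array 2 or either ASC array), Col5a2 (without wild-type BM-MSC array 1 or either ASC array), Col11a1 and Col23a1 (without either BM-MSC array or ASC array 1), and Col8a1 and Col10a1 (each without any of 7 arrays). Without wild-type ASC array 1 the change of Col9a2 was 0.55, against 0.85 with it, and that of Col23a1 0.62, against 0.96.

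**Figure D3:**
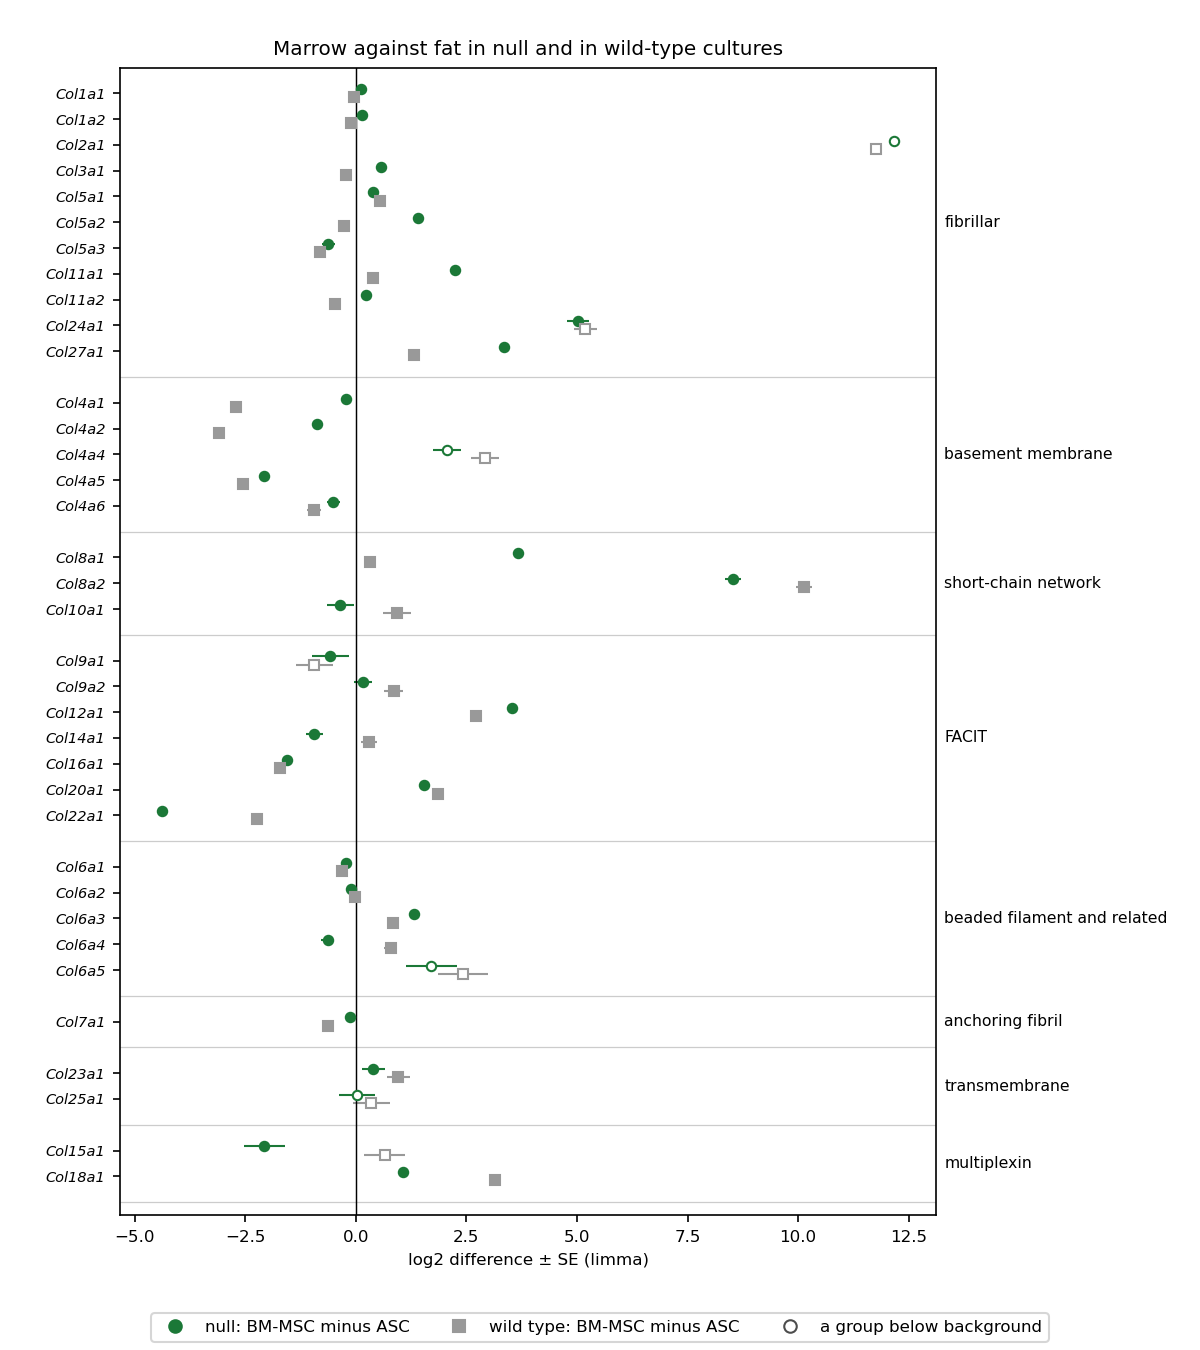
BM-MSC minus ASC difference (log2, ± SE from limma) for the 36 tested collagen genes, in null cells (green circles) and wild-type cells (grey squares). Open symbols mark a group below background, where only a bound on the fold is given in the text. Col2a1, Col8a2, Col24a1 and Col12a1 lie far to the right in both genotypes, and Col4a5, Col16a1 and Col22a1 to the left.

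The tumor line was set against the null BM-MSC it came from and against wild-type BM-MSC. These comparisons share the tumor line's arrays. Against null BM-MSC, 31 of the 36 collagen genes were called, where 69.5% of all genes tested were, with 28 lower and 3 higher, where the shares over all genes were 35.0% and 34.6%. Against wild-type BM-MSC, 31 were called, where 67.8% of all genes were, with 27 lower and 4 higher, where the shares over all genes were 34.8% and 32.9%. The median collagen change was -1.57 when null and -1.28 when wild-type cells were the comparison, while the median over all genes was -0.05 and -0.06. Among the 26 collagen genes above background on all 10 arrays, 21 were lower and 3 higher than in null BM-MSC. Of all 17990 genes that met the same filter, 6806 were lower and 6742 higher.

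Every fibrillar gene except Col1a2 was lower in the tumor line than in either marrow culture, 10 of 11 in each comparison. Col1a2 had 9.27 and 9.0 in the tumor line, and its differences were -0.21 ± 0.14 (adjusted p = 0.214) against null and -0.09 ± 0.14 (adjusted p = 0.593) against wild-type BM-MSC. Col1a1 had 6.81 and 6.62, below every marrow array, with -0.58 ± 0.10 (adjusted p = 0.00177) against null and -0.51 ± 0.10 (adjusted p = 0.00353) against wild-type BM-MSC. The type I chains had smaller changes than the other fibrillar genes, though the difference between genes was not tested. The limit given above for the bright Col1a2 probe holds here too. Col3a1 had 5.47 and 5.57 in the tumor line, a change of -2.72 ± 0.06 (adjusted p = 2.51e-07) against null and -1.49 ± 0.06 (adjusted p = 2.65e-06) against wild-type BM-MSC. Col5a1 had 3.29 and 3.38, with -3.02 ± 0.05 (adjusted p = 9.49e-08) against null and -2.94 ± 0.05 (adjusted p = 1.16e-07) against wild-type BM-MSC. Col5a2 had -0.70 and -0.90, with -3.49 ± 0.08 (adjusted p = 2.68e-07) against null and -2.07 ± 0.08 (adjusted p = 2.1e-06) against wild-type BM-MSC. All 3 type V chains were lower, Col5a3 with 0.18 and 0.25 and a change of -1.36 against null BM-MSC. Col2a1 had -2.44 and -2.36 in the tumor line, where it was still above background, with -7.40 ± 0.10 (adjusted p = 4.03e-08) against null and -8.49 ± 0.10 (adjusted p = 2.88e-08) against wild-type BM-MSC.

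Col11a1 had 0.40 and 0.19 in the tumor line, with -2.96 ± 0.10 (adjusted p = 1.11e-06) against null and -0.71 ± 0.10 (adjusted p = 0.000866) against wild-type BM-MSC. Col11a2 had -4.35 and -4.22, with -2.26 ± 0.12 (adjusted p = 6.45e-06) against null and -2.26 ± 0.12 (adjusted p = 6.48e-06) against wild-type BM-MSC. Col24a1 had -2.16 and -1.91, with -3.86 ± 0.26 (adjusted p = 1.92e-05) against null and -1.61 ± 0.26 (adjusted p = 0.00148) against wild-type BM-MSC. Both type XI chains and Col24a1 were thus lower than in either marrow culture. The cartilage list had 5 of 6 tested genes lower and none higher in both comparisons. Col10a1 was not well above background in the tumor line, at least 2.47-fold lower (adjusted p = 0.00346) than in null and at least 5.94-fold lower (adjusted p = 0.000209) than in wild-type BM-MSC. Col9a2 was likewise dim there, at least 1.8-fold lower (adjusted p = 0.00429) than in null BM-MSC. Chondrocyte markers summed to 35.8 to 36.1 in the tumor line, against 8.98 to 9.17 in null and 4.88 to 5.37 in wild-type BM-MSC, with Matn1 and Matn3 not above background in the line. Osteoblast markers summed to 128 to 135 in the line, against 81.7 to 84.4 in null and 26.3 to 27.7 in wild-type BM-MSC, with Sp7, Alpl and Bglap not above background there. The osteoblast sum in the line was almost all Spp1, which averaged 7.03 in the line, against 3.66 in null BM-MSC and 4.21 in wild-type BM-MSC. The other 5 osteoblast markers were lower in the line than in null BM-MSC, with Ibsp at -4.41 in the line, against 5.69 in null BM-MSC and 2.37 in wild-type BM-MSC. The chondrocyte sum was mainly Acan, at 4.76 in the line and above background on 1 of 2 arrays of each marrow group, while Comp averaged -2.64 in the line, against 2.62 in null BM-MSC and 0.95 in wild-type BM-MSC. Adipocyte markers summed to 2.19 to 2.25 in the line, against 7.17 to 7.36 in null BM-MSC and 13.4 to 14.1 in wild-type BM-MSC. Adipoq and Plin1 were not above background in the line. Pparg averaged -1.17 in the line, against 2.48 in null BM-MSC, and Cebpa -0.79, against 0.51. Fabp4 went the other way, at 0.22 in the line, against -2.17 in null BM-MSC, though it was 1.96 in wild-type BM-MSC. Hematopoietic and macrophage markers summed to 13.4 to 14.3 in the line, against 22.2 to 23.3 in null BM-MSC and 28.5 to 28.8 in wild-type BM-MSC. This list was split. Itgam, its brightest member, averaged 2.80 in the line, against 4.23 in null BM-MSC and 4.54 in wild-type BM-MSC. Csf1r, Emr1 and Ptprc also averaged lower in the line than in either marrow group. Cd14, Cd68 and Lyz2 averaged higher, with Cd14 at 1.93 in the line, against 0.48 in null BM-MSC and 0.93 in wild-type BM-MSC. The part of any of these lists in the collagen decrease was not tested.

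The short-chain collagens were all lower in the tumor line. Col8a2 had -3.15 and -3.23 in the tumor line, with -8.34 ± 0.18 (adjusted p = 1.81e-07) against null and -7.95 ± 0.18 (adjusted p = 2.26e-07) against wild-type BM-MSC. Col8a1 had -0.78 and -1.05, with -3.79 ± 0.10 (adjusted p = 3.33e-07) against null and -1.93 ± 0.10 (adjusted p = 5.1e-06) against wild-type BM-MSC. In the basement membrane class, Col4a1 had 0.90 and 0.94 in the tumor line, with -3.95 ± 0.06 (adjusted p = 4.89e-08) against null and -2.01 ± 0.06 (adjusted p = 5.53e-07) against wild-type BM-MSC. Its partner Col4a2 had 1.99 and 2.03, with -2.14 ± 0.07 (adjusted p = 1.03e-06) against null and -0.64 ± 0.07 (adjusted p = 0.000271) against wild-type BM-MSC, so the pair changed in the same direction by different amounts. Col4a5 went the other way, with 1.49 and 1.54 in the tumor line and rises of 0.79 ± 0.06 (adjusted p = 3.75e-05) against null and 0.38 ± 0.06 (adjusted p = 0.00151) against wild-type BM-MSC. Col4a4 had -3.32 and -3.68 in the line, not past against null (adjusted p = 0.6) and -1.18 ± 0.31 (adjusted p = 0.0141) against wild-type BM-MSC.

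Of the 7 tested FACIT genes 5 were lower and 1 higher in each comparison. Col12a1 had -1.80 and -1.73 in the tumor line, with -5.48 ± 0.05 (adjusted p = 1.49e-08) against null and -5.21 ± 0.05 (adjusted p = 1.85e-08) against wild-type BM-MSC. Col20a1 had -1.86 and -1.98, with -2.17 ± 0.10 (adjusted p = 3.51e-06) against null and -3.15 ± 0.10 (adjusted p = 7.66e-07) against wild-type BM-MSC. The single FACIT that rose was Col16a1, with 6.35 and 6.36 in the tumor line and 1.04 ± 0.04 (adjusted p = 2.38e-06) against null and 1.15 ± 0.04 (adjusted p = 1.66e-06) against wild-type BM-MSC. Col14a1 had -3.70 and -4.07, with -1.70 ± 0.18 (adjusted p = 0.000199) against null BM-MSC. Col18a1, a multiplexin, had the largest rise among the collagen probes used in both comparisons. It had 4.18 and 4.17 in the tumor line, with 2.49 ± 0.04 (adjusted p = 9.49e-08) against null and 1.60 ± 0.04 (adjusted p = 4.86e-07) against wild-type BM-MSC. Among type VI chains Col6a1 had 6.71 and 6.73 in the line and -1.60 ± 0.04 (adjusted p = 3.91e-07) against null BM-MSC, and Col6a2 had 4.20 and 4.18 and -2.39 ± 0.05 (adjusted p = 2.32e-07). Col6a3 had 6.37 and 6.40 in the line, lower than null BM-MSC at -1.07 ± 0.04 (adjusted p = 2.22e-06) and slightly higher than wild-type BM-MSC at 0.15 ± 0.04 (adjusted p = 0.0203). Col7a1 was lower than in null BM-MSC at -1.47, and than in the wild-type cells at -1.66. Leaving out any 1 array kept 28 of 31 calls against null BM-MSC and 27 of 31 against wild-type BM-MSC. Against null BM-MSC the calls lost were Col4a6 (without either null BM-MSC array, and at -0.31 without tumor line array 2), Col6a4 (without either null BM-MSC array or tumor line array 2) and Col15a1 (without any of 6 arrays), with highest adjusted p between 0.0698 and 0.207. Against wild-type BM-MSC they were Col4a4 and Col4a6 (without tumor line array 2 or wild-type BM-MSC array 1, with Col4a6 at -0.25 without the tumor line array), Col6a3 (without array 2 of either group) and Col6a4 (without any of 6 arrays, at -0.22 without wild-type BM-MSC array 1), with highest adjusted p between 0.0813 and 0.19.

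**Figure D4:**
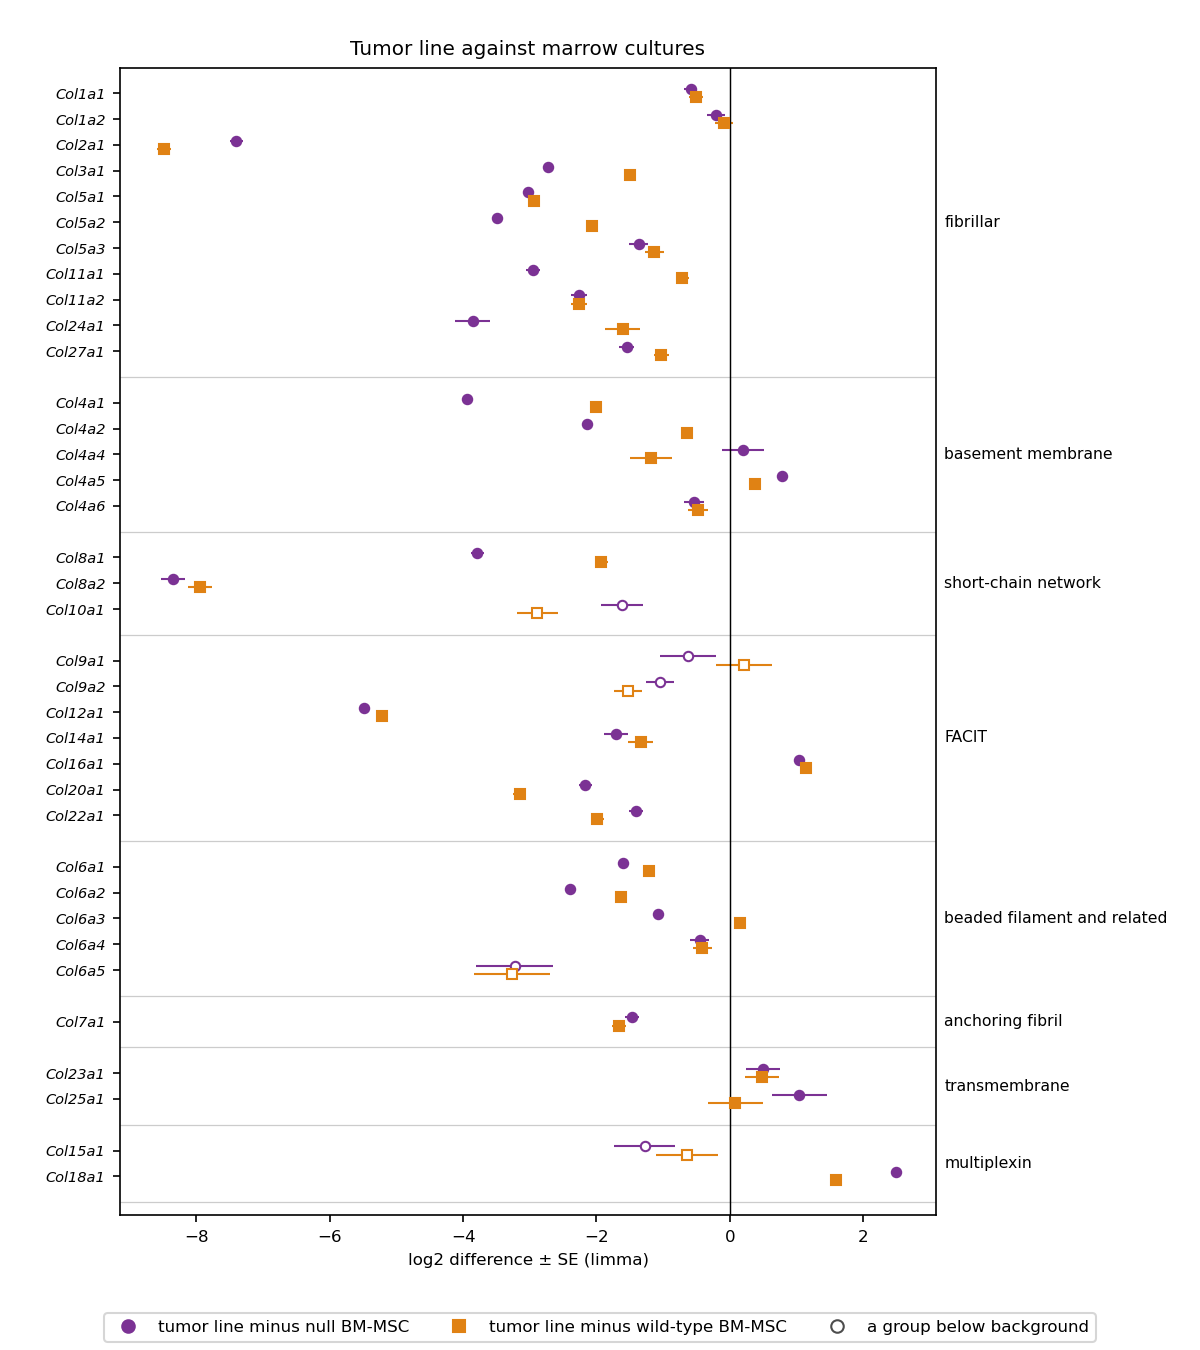
Tumor line minus marrow culture difference (log2, ± SE from limma) for the 36 tested collagen genes by class. Purple circles are against null BM-MSC and orange squares against wild-type BM-MSC, which share the tumor line's 2 arrays, and open symbols mark a group below background. Most genes lie left of 0, Col1a2 lies near it, and Col18a1, Col16a1 and Col4a5 lie to its right in both comparisons.

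Probes of the same gene did not always give the same answer. For 18 of the 43 genes the array carries several probes, and 33061 probes were fitted on their own in a check chosen after the data were seen. For Col16a1, 3 probes, and for Col18a1, both probes, gave rises in the tumor line in each comparison. The other Col18a1 probe gave 2.60 when null BM-MSC were the comparison and 1.59 when the wild-type cells were. Col8a2's other probe gave 6.74 for null BM-MSC against null ASC and 6.41 for the wild-type pair, and -7.22 for the tumor line against null BM-MSC, but 0.15 for null against wild-type ASC (adjusted p = 0.694), where the probe used gave 1.99. The Col4a6 probe used changed by -0.51 and -0.95 between marrow and fat in null and wild-type cells, while its other probe changed by -6.72 and -6.97 (adjusted p = 0.000362 and 0.00033). That other probe was above background on only 1 array of each marrow group, so the sizes of its changes are uncertain. Col14a1's other probe was lower in null than in wild-type BM-MSC at -2.09 (adjusted p = 0.00103), higher in null than in wild-type ASC at 3.31, and level between the tumor line and null BM-MSC at 0.03. In null BM-MSC it was above background on only 1 array. Col4a4's other probe turned the sign in null against wild-type BM-MSC (0.94) and in wild-type BM-MSC against wild-type ASC (-1.08). Col22a1's other probe gave 0.20 in null against wild-type BM-MSC, but it was not above background in either group. That value is therefore no measured difference. Another Col25a1 probe was higher in the tumor line at 3.76 compared with null and 3.57 compared with wild-type marrow cells (adjusted p = 0.000919 and 0.00122), where the probe used passed in neither. This other probe was above background in the tumor line alone, so it was fitted only through the group where it was high. That selection favours such a call, and its sizes are no measured folds. Which transcripts these probes read was not determined, so Col4a4, Col4a6, Col14a1 and Col25a1 results are those of 1 probe each.

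**Figure D5:**
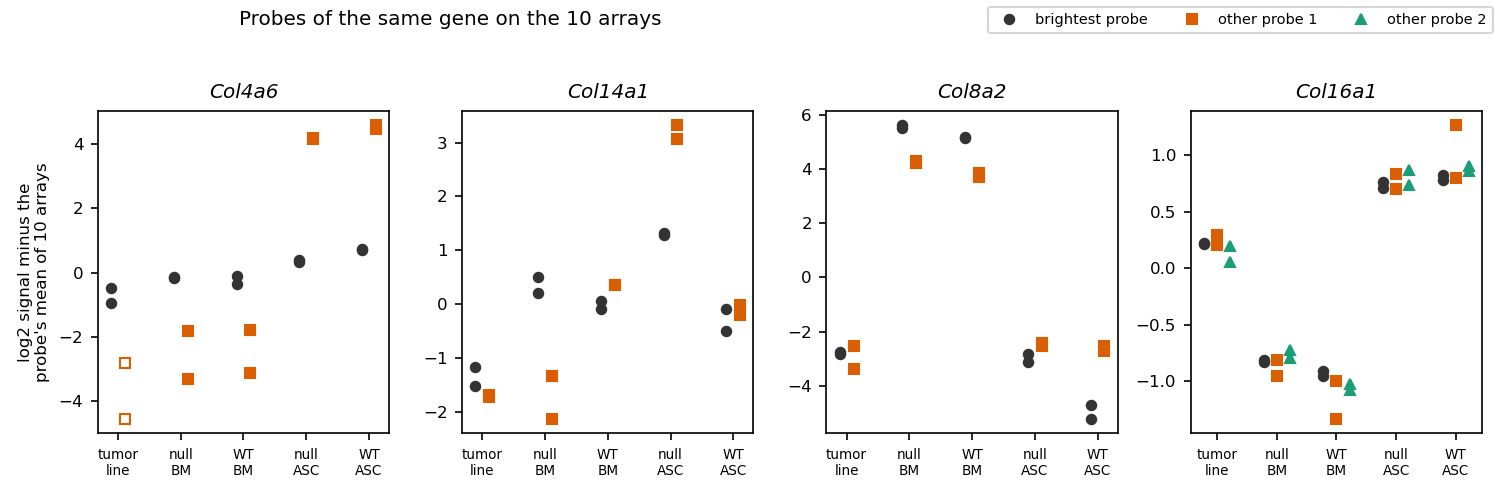
Each probe of Col4a6, Col14a1, Col8a2 and Col16a1 on the 10 arrays, as log2 signal minus that probe's own mean over the arrays, so that probes can be compared in pattern and not in level. Black circles are the probe used, orange squares and green triangles other probes, and open symbols are not above background in the group. The Col16a1 probes run together, while the other Col4a6 probe falls much further in marrow cultures than the probe used. It was above background on only 1 array of each marrow group.

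Genes that act on collagen chains were read from lists of known modifiers, propeptide-removing factors and receptors, of which 35 of 40 symbols were on the array. Of 19 genes of chain modification and folding, 15 were lower and 3 higher in the tumor line than in null BM-MSC, where 35.0% of all genes tested were lower and 34.6% higher, with a median of -0.80, against -0.05 over all genes. Against wild-type BM-MSC 14 were lower and 3 higher, where 34.8% and 32.9% of all genes were. Serpinh1, the collagen chaperone HSP47, was lower at -1.25 ± 0.06 (adjusted p = 3.97e-06) against null BM-MSC, and Creb3l1, a factor that drives collagen synthesis in bone, at -2.61 ± 0.06 (adjusted p = 2.84e-07). Leprel1, a prolyl 3-hydroxylase, was higher at 2.37 ± 0.19 (adjusted p = 4.61e-05). In null against wild-type BM-MSC 8 of the 19 were higher and 5 lower, where 19.3% and 20.2% of all genes were, with Creb3l1 at 0.99, Serpinh1 at 0.70 and Leprel1 at -1.12. In null against wild-type ASC 8 were higher and 5 lower, where 20.3% and 21.2% of all genes were, with Glt25d2, a collagen galactosyltransferase, at least 4.88-fold higher (adjusted p = 2.99e-05), and P4ha1, a prolyl 4-hydroxylase chain, at -0.83 ± 0.07 (adjusted p = 0.000176). Glt25d2 was above background in null ASC alone, so it was tested only through the group where it was high.

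Among 7 tested factors that trim propeptides, Adamts14 was higher in the tumor line at 3.28 ± 0.05 (adjusted p = 4.73e-08) against null and 4.56 ± 0.05 (adjusted p = 2.05e-08) against wild-type BM-MSC, and Adamts2 was lower at -1.94 ± 0.06 (adjusted p = 5.47e-07) against null and -2.12 ± 0.06 (adjusted p = 4.05e-07) against wild-type BM-MSC. Both proteases remove the amino-terminal propeptide of fibrillar procollagens. Adamts14 was also higher in null than in wild-type BM-MSC at 1.29 ± 0.05 (adjusted p = 1.15e-05). Between tissues, Pcolce2, an enhancer of carboxy-terminal trimming, was at least 36.5-fold higher (adjusted p = 7.5e-06) in null BM-MSC than in null ASC and at least 22.3-fold higher (adjusted p = 5.64e-06) in the wild-type pair. Adamts3 was at least 48.6-fold lower (adjusted p = 2.24e-06) in null BM-MSC than in null ASC and at least 34.7-fold lower (adjusted p = 1.35e-05) in the wild-type pair. Of 8 collagen receptors, 6 were lower and none higher in the tumor line than in null BM-MSC, and 4 were lower and 2 higher than in wild-type BM-MSC, where 35.0% and 34.6% of all genes in the first and 34.8% and 32.9% in the second comparison were lower and higher. The integrin chain Itga11, which binds fibrillar collagen, was lower at -3.92 ± 0.06 (adjusted p = 6.85e-08), and Itga1, which binds type IV, at -2.88 ± 0.07 (adjusted p = 2.59e-07). Against wild-type BM-MSC, Itga11 stood at -3.17 ± 0.06 (adjusted p = 1.51e-07) and Itga1 at -2.89 ± 0.07 (adjusted p = 2.67e-07). Itga10, known from chondrocytes, was higher in null than in wild-type BM-MSC at 3.77 ± 0.12 (adjusted p = 8.28e-06), and Itga11 was higher in marrow than in fat at 4.53 ± 0.06 (adjusted p = 6.36e-08) in null and 3.44 ± 0.06 (adjusted p = 1.7e-07) in wild-type cells. In null against wild-type ASC, Itga2 was at least 3.39-fold higher (adjusted p = 0.0185) and Itga1 lower at -0.96 ± 0.07 (adjusted p = 9.62e-05). Itga2 too was above background in null ASC alone and was tested only through that group.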

How the data were processed

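Gene expression was measured in 10 samples on single-colour Agilent arrays carrying 55681 probes other than controls, 2 independent cultures per group per the labels. Per the file headers, the authors extracted the spot intensity with Agilent Feature Extraction 10.7.3.1 (background subtracted and spatially detrended, probes placed on mm9), and the deposited scanner files give this processed intensity and flags per spot. The deposited series matrix holds log2 values normalized between arrays by a method not stated, with column medians of 5.04 to 5.06 and a correlation with the scanner values of 0.989 to 0.993. It was used only as an alternative, and its exact scale and centring remain unknown.

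From the scanner files, 37 probes were dropped because every spot of theirs on some array carried an outlier flag, processed intensities were taken to log2 and each array's 75th percentile was subtracted. A gene was tested if its brightest probe passed the scanner's well-above-background flag in both cultures of some group. Group means were fitted together over all 5 groups with limma 3.58.1 (R 4.3.3), 7 contrasts were tested with eBayes (5 residual and 1.35 prior degrees of freedom), and p-values were adjusted by Benjamini-Hochberg over 22623 genes. The procedure was tested on simulated data. Precision is set by having 2 arrays a group, with a median standard error of 0.0947 between groups.

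All collagen genes could be named; array values were set out for chains of the main types and for the 4 largest rises and falls per contrast, and from the lists of collagen-handling genes the 2 largest rises and falls. Col26a1 was not analysed here. The members, lists and tests were chosen with earlier results of these data known. No pairing by replicate number was seen (closing section), and none was fitted in the main results. Alternatives were normexp with an offset of 50, median scaling, quantile normalization, the authors' matrix, no filter, a stricter filter, averaged or other probes, an intensity trend, only the arrays compared, a replicate block and leaving out each array. Promoter sequence came from RefSeq on GRCm38.p6. Accessions of 40 of the probes used were found in the RefSeq table, and all 40 carried the same symbol. Where a probe falls in its transcript was not determined, since no mm9 annotation was used here.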

Additional observations from a re-analysis of the deposited data

Results flagged for a closer look

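The null effect (null minus wild type, log2) differed between marrow and fat, by the test of the difference itself with limma and Benjamini-Hochberg adjustment, for the 18 collagen genes given here, with adjusted p between 1.82e-05 and 0.0458, where 31.8% of all genes tested differed. In 12 genes the effect was higher in marrow. Col8a1 differed by 3.35 ± 0.14 (adjusted p = 3.49e-05), with effects of 1.86 in marrow and -1.49 in fat. Col4a1 differed by 2.49 ± 0.08 (1.93 in marrow, -0.56 in fat), Col4a2 by 2.22 ± 0.10 (1.5 in marrow, -0.71 in fat) and Col27a1 by 2.03 ± 0.16 (0.52 in marrow, -1.51 in fat). Col5a2 differed by 1.67 ± 0.12 (1.42 in marrow, -0.26 in fat) and Col12a1 by 0.82 ± 0.07 (0.27 in marrow, -0.55 in fat). For these 6 genes the effects were called in opposite directions. Col11a1 differed by 1.85 ± 0.14 (2.25 in marrow, 0.40 in fat), Col3a1 by 0.78 ± 0.09 (1.23 in marrow, 0.45 in fat) and Col6a3 by 0.48 ± 0.06 (1.22 in marrow, 0.74 in fat), with rises in both tissues. Col4a5 differed by 0.47 ± 0.09 (-0.41 in marrow, -0.88 in fat), lower in both. Col11a2 differed by 0.70 ± 0.17 (0.00 in marrow, -0.70 in fat) and Col7a1 by 0.49 ± 0.15 (-0.18 in marrow, -0.68 in fat), called in fat alone.

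In 6 genes the effect was lower in marrow than in fat. Col18a1 differed by -2.07 ± 0.06 (-0.90 in marrow and 1.18 in fat) and Col22a1 by -2.15 ± 0.14 (-0.58 in marrow, 1.57 in fat), called in opposite directions. Col8a2 differed by -1.59 ± 0.25 (0.39 in marrow, 1.99 in fat, with 1 wild-type ASC array not well above background), Col6a4 by -1.43 ± 0.20 (0.04 in marrow, 1.46 in fat) and Col14a1 by -1.23 ± 0.26 (0.37 in marrow, 1.60 in fat). Col15a1 differed by -2.73 ± 0.65 (adjusted p = 0.0213), and since it was dim in both wild-type groups this size is no measured fold. It also passed the filter through null ASC alone, the group where it was high. The causes of these differences were not tested.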

How the results depend on the processing

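The number of collagen genes called stayed within 1.5 times that reported under every alternative run. With the number reported first, leave-one-out counts were 19 (16 to 21) for null against wild-type BM-MSC, 24 (21 to 25) for null against wild-type ASC, 18 (14 to 18) for the difference of these effects, 26 (22 to 26) and 29 (21 to 28) for marrow against fat in null and wild-type cells, and 31 (29 to 31) and 31 (27 to 31) for the tumor line against null and wild-type BM-MSC. Single changes stayed on their side of the threshold in 2392 refits without 1 array, gained a call in 21 and lost it in the rest. Under some other alternatives a change turned its sign, and the cause was not tested. When the probes of a gene were averaged, Col14a1 in null against wild-type BM-MSC became -0.86. With normexp background correction the difference of effects became -0.85 for Col2a1 and 1.499 for Col24a1, both dim in fat cultures. With another probe, the change in null against wild-type BM-MSC became 0.94 for Col4a4, -2.09 for Col14a1 and 0.20 for Col22a1, the difference of effects 0.325 for Col8a2, the wild-type marrow against fat change -1.08 for Col4a4 and -0.34 for Col23a1, and the tumor line against null BM-MSC change -1.14 for Col4a4 and 0.0296 for Col14a1. The other Col22a1 probe was not above background in either BM-MSC group, and the other Col14a1 probe on only 1 null BM-MSC array.

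Deviations of same-numbered arrays correlated between -0.122 and 0.116 over pairs of groups, so no pairing by number was seen. Such correlations cannot exclude that same-numbered cultures were handled together. With a replicate block the counts of calls, in the same order, were 19, 23, 19, 26, 28, 31 and 31, and the call of Col5a2 was lost in fat (adjusted p = 0.0759) and between wild-type tissues (0.0517), and that of Col10a1 gained in the difference of effects (0.0424). Over all genes the difference of effects gave 7199 calls, against 4739 under median scaling. That scaling set the all-gene median at 0.09, against -0.02, for null marrow against fat and at 0.05 and 0.07, against -0.05 and -0.06, for the tumor line against null and wild-type BM-MSC. Small marrow against fat differences of Col3a1, Col5a2, Col4a1 and Col6a1 did not keep their call under it. Signal over background limits what can be said of dim probes such as those of Col4a4, Col6a4, Col6a5, Col10a1 and Col15a1. Of these, Col6a5 passed the filter through wild-type BM-MSC alone and Col15a1 through null ASC alone, in each case the group with its highest mean.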

Other observations

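Several collagen genes lie next to each other, with no protein-coding gene between them in the RefSeq table on GRCm38.p6. Col3a1 and Col5a2 on chromosome 1 were higher in null than in wild-type BM-MSC by 1.23 and 1.42 on the log2 scale, while in fat cells Col3a1 was higher at 0.45 and Col5a2 lower at -0.26. In the tumor line they stood at -2.72 and -3.49 against null BM-MSC. Col6a1 and Col6a2 on chromosome 10 were higher in null cells of both tissues, and Col18a1, with 2 genes between it and Col6a1, was lower in marrow at -0.90 and higher in fat at 1.18. In the tumor line against null BM-MSC, Col6a1 stood at -1.60 and Col6a2 at -2.39, with Col18a1 at 2.49. Col4a5 and Col4a6 on chromosome X were both lower in marrow than in fat, in null and in wild-type cells.

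The 6 chondrocyte markers split in the tumor line against null BM-MSC, where the Col2a1 change was -7.40. Sox9, a factor that drives cartilage genes, was higher at 1.44 ± 0.07 (adjusted p = 4.13e-06), and Hapln1, the cartilage link protein, at 2.33 ± 0.06 (adjusted p = 3.49e-07). Acan, the main cartilage proteoglycan, had 4.77 and 4.76 in the tumor line and was well above background on 1 of 2 arrays of null BM-MSC, with a difference of 9.72 ± 0.16 (adjusted p = 7.28e-08). Comp, a matrix protein that binds collagen fibrils, was lower at -5.26 ± 0.41 (adjusted p = 3.78e-05). Matn3 was at least 10.3-fold lower (adjusted p = 1.61e-05), and Matn1 was not above background in either group. Matn3 was above background in null BM-MSC alone, so it was tested only through the group where it was high. The tumor line is 1 line, and these values describe it alone.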
